A study of Rattus norvegicus with 18 samples.

Results

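Integrins are receptors on the cell surface that hold cells to the matrix around them or to other cells, and laminins are the main cell-binding proteins of basement membranes. The genes of both families were taken by name from a kidney expression table: every gene whose name starts with Itga, every Itgb followed by 1 digit, and every Lama, Lamb or Lamc followed by 1 digit. The rule gave 37 of the 32116 genes in the table, made up of 26 integrin genes and 11 laminin genes. Lamb4 was not among the table's rows.

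The libraries came from rat kidneys in 3 groups of 6. NC rats had no treatment, CKD rats received a daily adenine dose of 100 mg per kg as a model of chronic kidney disease, and SZ rats received 100 mg per kg of adenine and 300 mg per kg of SZ-A daily. The sources used here do not give what SZ-A is, nor the strain, sex and age of the rats or the length of treatment. The labels do not say that each library came from a separate rat, so the p-values rest on the spread among libraries, and part of that spread may be technical.

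An integrin is a pair of 1 alpha and 1 beta chain, and the pairing sets both the ligand and the cells that carry it. The beta chain of Itgb2 pairs with the alpha chains of Itgal, Itgam, Itgax and Itgad on leukocytes, and Itgb7 pairs with Itga4 or Itgae on lymphocytes. Tubule cells rest on laminin and collagen through Itgb1 integrins, Itga6 with Itgb4 anchors epithelial cells to laminin, and the Itgav integrins with Itgb6 or Itgb8 bind the latent form of TGF-beta. A laminin is a trimer of 1 alpha, 1 beta and 1 gamma chain. Lama3 and Lamb3 are chains of a laminin best known from skin and other covering epithelia, while Lama5, Lamb1, Lamb2 and Lamc1 make up most laminin of the kidney's tubular and glomerular basement membranes, and Lama4 is a chain of vessel walls.

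Values are FPKM, fragments per kilobase of gene length, scaled for library size by the authors, so levels can be set side by side between genes. The 18 libraries held 15354358 to 18532375 reads each. The library sizes that the FPKM values imply were 0.862 to 0.951 times the total reads in NC. They were 1.02 to 1.26 times the total in CKD and 0.969 to 1.12 times in SZ, so the values are not scaled to total reads alone. A gene was tested where it had at least 1 FPKM in at least 6 of 18 libraries, and 32 of the 37 members passed. Itga2, Itga10, Itga11, Itgad and Itgae did not. Itgam, Itgb3, Itgb7 and Lamb3 passed with no NC library at 1 FPKM, so they entered through the other groups and their counts are descriptions. A gene was called at an adjusted p under 0.05, and differences are of means on the log2(FPKM + 1) scale with their standard errors. This scale understates the change of genes with low FPKM. Where 3 means are given together they are those of NC, CKD and SZ, with the SD over 6 libraries each.

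Libraries CKD 2, CKD 5 and SZ 3 stood apart in 1 technical measure, the length slope, which is the change in log2 level per doubling of gene length over 8189 abundant protein-coding genes. It was -0.211 in CKD 2, -0.312 in CKD 5 and -0.248 in SZ 3. CKD 1 had -0.100, and the other 14 libraries lay between 0.0111 and 0.115. Long transcripts were therefore low in these 3 libraries, and values that rest on them are given below with the libraries named. The tubule epithelial markers, fixed as a list of 10 genes, summed to 3139 to 4294 FPKM in NC, 1246 to 2131 in CKD and 1987 to 2666 in SZ, so the tissue label was borne out in all groups.

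Against NC, 19 of 32 tested members were called in CKD, 16 higher and 3 lower, where 50.3% of all 13851 tested genes were called, 24.4% higher and 26.0% lower. The members' median difference was 0.50, beside -0.04 over all tested genes. In SZ against CKD, 4 members were called, 1 higher and 3 lower, beside 11.0% of all tested genes called, 4.16% higher and 6.82% lower. In SZ against NC, 15 were called, 14 higher and 1 lower, beside 21.1% of all, 12.5% higher and 8.61% lower. Group ranges did not overlap for 11 members in CKD against NC, 0 in SZ against CKD and 12 in SZ against NC, beside 26.5%, 2.26% and 14.6% of all tested genes. Leaving out 1 library moved the count in SZ against CKD to 10 (CKD 1), 9 (SZ 3) or 2 (CKD 5 or SZ 4). Both comparisons with CKD share its 6 libraries, so a low or high CKD library moves them in opposite directions. The split depended on scaling. Rescaling each library to a fixed FPKM sum moved the median gene by 0.34 in CKD against NC. There 20 members were called higher and 1 lower, beside 6661 and 1265 of all 13875 genes tested with that scaling. In SZ against CKD it gave 0 members higher and 4 lower, beside 291 and 1728 of all. In SZ against NC it gave 19 members higher and 0 lower, beside 3474 and 263 of all.

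**Figure D1:**
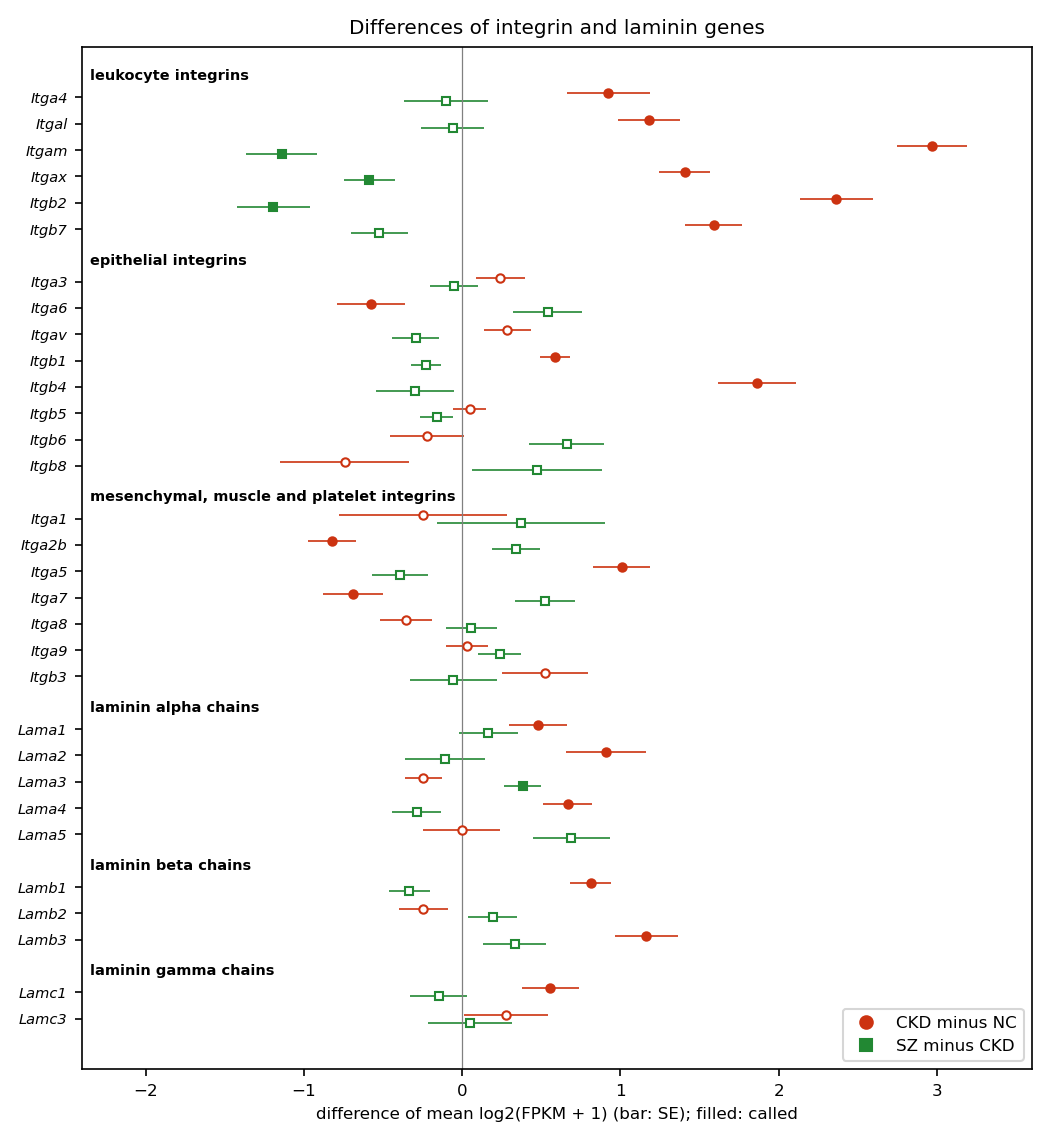
Differences of means on the log2(FPKM + 1) scale for the tested integrin and laminin genes reported here, with CKD minus NC as circles and SZ minus CKD as squares; bars are standard errors and filled symbols passed the test. The leukocyte integrins lie at 0.92 to 2.97 in CKD against NC, and Itgb2, Itgam and Itgax are the members called lower in SZ against CKD.

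All 6 leukocyte integrins that were tested were called higher in CKD than in NC (median difference 1.50), beside 24.4% of all tested genes. Group ranges did not overlap for 5 of the 6, beside 26.5% of all tested genes. Itgam and Itgb7 had no NC library at 1 FPKM and Itga4 had 1. These genes passed the filter through the groups where they are high, so the counts of this list are descriptions. In SZ all 6 were called higher than in NC (median 1.09), beside 12.5% of all tested genes. Against CKD, 3 of the 6 were called lower in SZ, namely Itgb2, Itgam and Itgax (median over the 6 of -0.56), where 6.82% of all tested genes were called lower.

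2 of these genes, Itgam and Itgax, are near neighbours on chromosome 1. In the table's build, mRatBN7.2, Itgam spans 182659000 to 182709503 and Itgax spans 182719609 to 182740698, both on the plus strand, followed by Itgad at 182759740 to 182788161. Itgal lies on the same chromosome at 181918183 to 181955732. Their promoter windows are shown because these 2 alpha chains share a partner and a place but differed in size of change. The windows run from 250 bases before to 50 after the gene start in RefSeq's GRCr8 assembly, chr1:192089342-192089641 for Itgam and chr1:192149799-192150098 for Itgax, both on the plus strand. Capitals mark GAGGAA, the core recognised by PU.1 of myeloid cells, and TGANTCA, the AP-1 motif, each searched on both strands.
Itgam: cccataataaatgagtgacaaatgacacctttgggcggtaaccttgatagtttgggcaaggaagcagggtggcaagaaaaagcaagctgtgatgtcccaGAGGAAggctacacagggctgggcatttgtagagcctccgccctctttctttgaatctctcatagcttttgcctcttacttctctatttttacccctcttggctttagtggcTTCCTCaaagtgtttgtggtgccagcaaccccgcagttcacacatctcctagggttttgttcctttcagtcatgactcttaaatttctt
Itgax: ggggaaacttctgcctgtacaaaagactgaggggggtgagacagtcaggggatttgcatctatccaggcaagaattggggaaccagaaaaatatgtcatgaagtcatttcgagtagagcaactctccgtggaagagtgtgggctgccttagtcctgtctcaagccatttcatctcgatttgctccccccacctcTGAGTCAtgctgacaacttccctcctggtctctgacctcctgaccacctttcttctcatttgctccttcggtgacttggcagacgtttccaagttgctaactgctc
The Itgam window held 2 matches of GAGGAA and none of TGANTCA, and the Itgax window held 1 match of TGANTCA and none of GAGGAA. Of all 33469 promoter windows of this length, 27.6% held GAGGAA and 7.33% held TGANTCA. Among the 28 of 37 members with a window, 12 held the first and 2 the second. A match is a description of the letters and not a measured site.

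Itgam, the alpha chain of the complement receptor on monocytes, macrophages and neutrophils, was almost silent in untreated kidneys. In NC it lay between 0.200 and 0.619 FPKM with a median of 0.435, which rests on 14 to 40 reads per library. In CKD it lay between 6.62 (CKD 1) and 17.6 (CKD 4) with a median of 9.59, and in SZ between 2.11 (SZ 1) and 7.09 (SZ 5) with a median of 4.13. Every CKD and every SZ library stood above every NC library, while SZ and CKD overlapped, since the highest SZ value exceeded the lowest CKD value. Mean FPKM was 0.418 ± 0.172 in NC, 10.6 ± 4.05 in CKD and 4.26 ± 1.81 in SZ (SD, n = 6 each), a 25.3-fold ratio of CKD to NC means. The difference was 2.97 ± 0.22 in CKD against NC (adjusted p = 2.1e-08) and -1.14 ± 0.22 in SZ against CKD (adjusted p = 0.0066), with a 95% interval of -1.61 to -0.67. SZ stayed 1.83 ± 0.22 above NC (adjusted p = 2.0e-05).

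Itgb2, the beta chain shared by the leukocyte integrins, followed the same order at a higher level. It lay between 3.44 and 4.68 FPKM in NC (median 4.11), between 17.6 (CKD 1) and 37.3 (CKD 4) in CKD (median 23.1) and between 6.02 (SZ 4) and 18.4 (SZ 5) in SZ (median 9.54). Again NC lay apart from both other groups, and of the SZ range only its top reached into the CKD range. The difference was 2.36 ± 0.23 in CKD against NC (adjusted p = 3.0e-07), -1.19 ± 0.23 in SZ against CKD (adjusted p = 0.0065, interval -1.68 to -0.70) and 1.17 ± 0.23 in SZ against NC (adjusted p = 0.0015). For both Itgam and Itgb2 the call in SZ against CKD passed in all 31 alternative settings, with adjusted p of 0.0017 to 0.033 for Itgam and 0.0020 to 0.035 for Itgb2.

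Itgax, the alpha chain that marks dendritic cells and some macrophages, was lowest in NC at 1.56 to 2.64 FPKM (median 1.76). It lay between 4.33 and 8.35 in CKD (median 6.88) and between 2.56 and 5.89 in SZ (median 4.36), so that SZ overlapped both other groups. CKD was 1.41 ± 0.16 above NC (adjusted p = 1.4e-06). SZ was below CKD by -0.59 ± 0.16 (adjusted p = 0.027), a call that passed in 24 of 30 alternatives (adjusted p of 0.0048 to 0.074). It was lost when CKD 4, CKD 5, SZ 1 or SZ 4 was left out (adjusted p of 0.056, 0.069, 0.064 and 0.074). SZ was 0.82 ± 0.16 above NC (adjusted p = 0.0013).

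**Figure D2:**
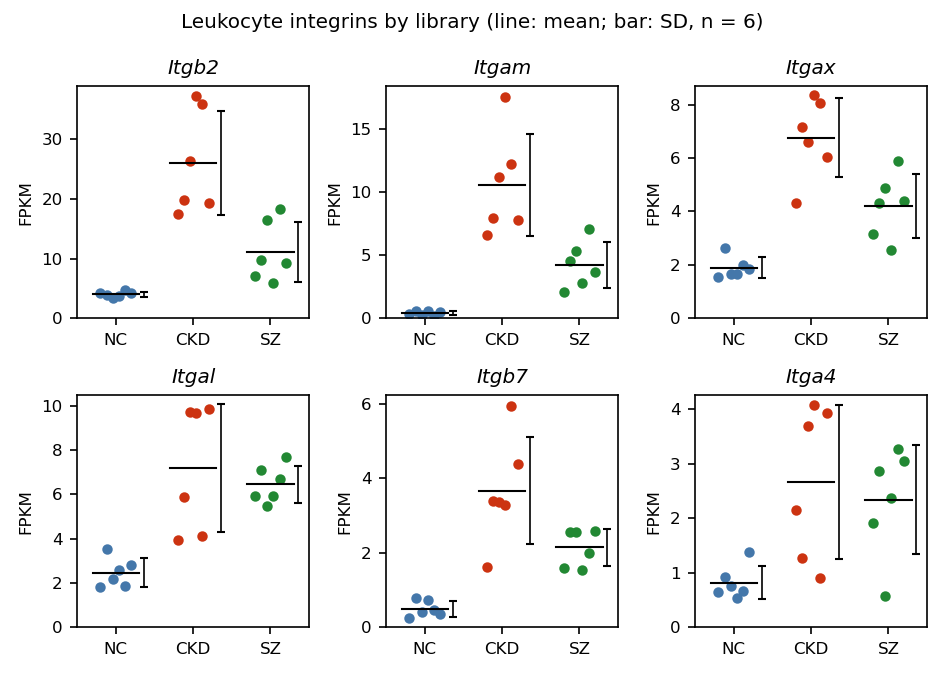
FPKM of the leukocyte integrin genes in each library of NC, CKD and SZ (points), with the mean and SD of each group of 6. For Itgam and Itgb2 every CKD library lies above every NC library and SZ lies between them with overlap into CKD.

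The remaining leukocyte chains rose in CKD without a drop past the test in SZ. Itgal, the alpha chain on most lymphocytes, lay between 1.83 and 3.54 FPKM in NC (median 2.38), 3.93 and 9.87 in CKD (median 7.78), and 5.47 and 7.67 in SZ (median 6.32). The SZ range sat wholly inside the CKD range and above NC. CKD exceeded NC by 1.18 ± 0.20 (adjusted p = 8.1e-05) and SZ exceeded NC by 1.12 ± 0.20 (adjusted p = 0.00056). SZ against CKD gave -0.06 ± 0.20 (adjusted p = 0.86, interval -0.47 to 0.35). The ratio of Itgam to Itgal, tested below, compares the chains directly.

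Itgb7, the beta chain of gut-homing and mucosal lymphocytes, lay between 0.258 and 0.799 FPKM in NC (median 0.435, 10 to 32 reads), 1.61 and 5.95 in CKD (median 3.38) and 1.55 and 2.60 in SZ (median 2.28). CKD and SZ libraries were all above NC and overlapped each other. CKD exceeded NC by 1.59 ± 0.18 (adjusted p = 1.5e-06) and SZ exceeded NC by 1.06 ± 0.18 (adjusted p = 0.00042). SZ against CKD was -0.52 ± 0.18 (adjusted p = 0.066), which passed in 5 of 30 alternatives. Itga4, the alpha chain that binds VCAM1, had means of 0.819 ± 0.305, 2.67 ± 1.41 and 2.34 ± 0.992 FPKM in NC, CKD and SZ (SD, n = 6). It was 0.92 ± 0.26 higher in CKD than in NC (adjusted p = 0.0068) and differed by -0.10 ± 0.26 between SZ and CKD (adjusted p = 0.82). Its excess in SZ over NC, 0.82 ± 0.26 (adjusted p = 0.032), was lost without any 1 of 8 libraries (highest adjusted p 0.077, without SZ 5). Its lowest values outside NC were in CKD 5 (0.896) and SZ 3 (0.576), 2 of the libraries with a negative length slope.

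Itgad and Itgae stayed under the filter. Itgad, a further partner of Itgb2 on macrophages, lay between 0.0503 and 0.399 FPKM in NC, 0.545 and 0.837 in CKD and 0.240 and 0.593 in SZ, so CKD did not overlap NC. With no filter on low values it was called higher in CKD (adjusted p = 4.4e-05) and had an adjusted p of 0.057 in SZ against CKD, where 34.0% and 4.61% of all genes were called. Itgae, the partner of Itgb7 on epithelial T cells, lay between 0.378 and 1.12 FPKM over all libraries with overlapping groups. Its locus overlaps 6 other genes, and the sources used here do not say whether counting used strand.

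General leukocyte markers moved in the same order as these integrins. Of the 17 tested members of a list of 22, all 17 were called higher in CKD than in NC (median 1.74), beside 24.4% of all tested genes, and 9 were called lower in SZ than in CKD (median -0.67), beside 6.82%. Low markers could pass the filter through the groups where they are high, and those low throughout were not tested. The counts of this list are therefore descriptions. Their summed level was 111.5 to 211.8 FPKM in NC, 960.7 to 1801 in CKD and 423.1 to 886.4 in SZ, and Mpo was under 0.1 FPKM in every library. The 8 leukocyte integrins summed to 9.56 to 13.6 FPKM in NC, 37.3 to 81.3 in CKD and 22.1 to 44.3 in SZ. In whole kidneys, more leukocytes and more integrin RNA per leukocyte cannot be told apart. The part of leukocyte number in these differences was not tested.

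Of the 8 epithelial integrins tested, 2 were called higher in CKD than in NC (Itgb4 and Itgb1), 1 was called lower (Itga6), and 5 did not pass (median difference 0.14). Of all tested genes 24.4% were called higher and 26.0% lower, or 50.3% in either direction, so these counts are no result about the list. None of the 8 was called in SZ against CKD by limma, beside 11.0% of all tested genes, and 3 had an unadjusted p under 0.05. Voom on the recovered reads called 0 of the 8. In SZ against NC, Itgb4 and Itgb1 were called higher, beside 12.5% of all tested genes. The summed FPKM of the 9 genes was 280.6 to 326.8 in NC, 276.9 to 397.4 in CKD and 242.1 to 377.1 in SZ, so the sums overlapped in all groups, in contrast to the leukocyte integrins, whose NC sums lay under all others.

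Itgb4, the beta chain of hemidesmosomes, had the largest difference of the epithelial list. It lay between 0.514 (NC 6) and 1.52 (NC 1) FPKM in NC (median 0.950), between 2.70 (CKD 2) and 9.40 (CKD 4) in CKD (median 6.72) and between 2.86 and 7.62 in SZ (median 4.84). Every CKD and SZ library was above every NC library, and SZ and CKD overlapped over most of their ranges. The mean was 6.80 times higher in CKD than in NC, with a difference of 1.86 ± 0.25 (adjusted p = 7.5e-06), and 1.56 ± 0.25 higher in SZ than in NC (adjusted p = 0.00021). SZ against CKD was -0.30 ± 0.25 (adjusted p = 0.43, interval -0.81 to 0.22). Itgb4 (chromosome 10, 101206665 to 101243012, plus strand) overlaps Galk1 on the opposite strand, whose means were 21.8 ± 3.96 in NC, 28.5 ± 8.07 in CKD and 23.0 ± 5.30 in SZ (SD, n = 6). Without a stated strand setting, reads in the shared part cannot be assigned to either gene for sure.

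Itgb1, the most abundant member and the beta chain of most matrix receptors, had a small difference with little spread. It lay between 87.8 and 104 FPKM in NC (median 95.2), 119 and 161 in CKD (median 150) and 108 and 141 in SZ (median 121). The NC range lay under both others. CKD exceeded NC by 0.59 ± 0.10 (adjusted p = 6.1e-05) and SZ exceeded NC by 0.36 ± 0.10 (adjusted p = 0.012), while SZ against CKD gave -0.23 ± 0.10 (adjusted p = 0.12).

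Itga6, the laminin-binding alpha chain that pairs with Itgb4 or Itgb1, was lower in CKD than in NC, so the 2 partners Itga6 and Itgb4 went in opposite directions. Its means were 64.2 ± 11.8 FPKM in NC, 44.2 ± 16.2 in CKD and 64.0 ± 16.3 in SZ (SD, n = 6), and it fell by 0.58 ± 0.22 (adjusted p = 0.033) with overlapping ranges. The call held in 20 of 31 alternatives and was lost without NC 2, NC 6, CKD 1, CKD 3, CKD 4 or CKD 5 (highest adjusted p 0.087, without CKD 5). With a fixed FPKM sum the difference was -0.13 (adjusted p = 0.66). CKD 6 at 75.0 stood far above the other CKD libraries, which ended at 42.0. SZ against CKD was 0.54 ± 0.22 (adjusted p = 0.11). Itga3, the other main laminin-binding alpha chain of tubules and podocytes, had means of 15.3 ± 2.87, 18.5 ± 5.22 and 17.4 ± 1.95 FPKM and did not pass (0.24 ± 0.15, adjusted p = 0.19).

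The integrins that bind latent TGF-beta did not pass in any comparison. Itgav had means of 21.9 ± 1.87, 27.4 ± 5.51 and 22.3 ± 4.75 FPKM in NC, CKD and SZ (0.29 ± 0.15 in CKD against NC, adjusted p = 0.12). It passed in 7 of 31 alternatives, among them the fixed FPKM sum at 0.72. Itgb5, another partner of Itgav, had 52.4 ± 6.23, 54.0 ± 4.82 and 48.3 ± 5.86 FPKM (0.05 ± 0.10, adjusted p = 0.72). Itgb6, the epithelial partner of Itgav, had 24.7 ± 3.70, 21.8 ± 6.68 and 35.5 ± 10.8 FPKM. In SZ it lay between 14.9 (SZ 3) and 43.5 with a median of 40.4, so 1 library was low. SZ against CKD gave 0.66 ± 0.24 (adjusted p = 0.073), and without SZ 3 it gave 0.89 (adjusted p = 0.0053). It also passed without CKD 1 and without CKD 6, the latter with an adjusted p of 0.048. Itgb8 had 27.3 ± 5.65, 18.5 ± 9.20 and 24.5 ± 9.97 FPKM and did not pass (-0.74 ± 0.41, adjusted p = 0.14). Its 3 lowest libraries were CKD 5 at 3.34, SZ 3 at 6.84 and CKD 2 at 10.8. Itga2, a collagen-binding alpha chain, stayed under the filter at 0.0545 to 0.170 FPKM in NC, 0.0848 to 1.53 in CKD and 0.0559 to 0.942 in SZ.

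**Figure D3:**
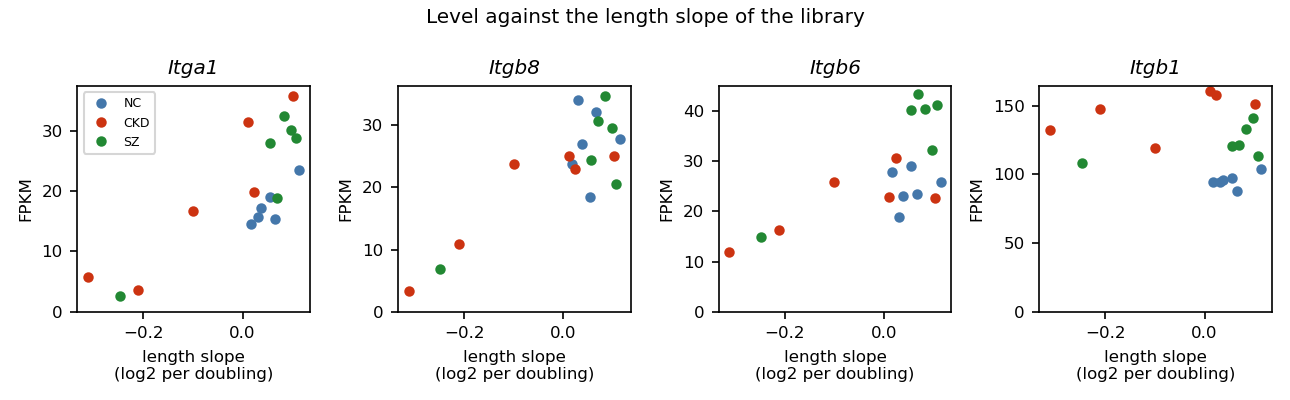
FPKM of 4 integrin genes in each library against the library's length slope (log2 change per doubling of gene length), coloured by group. The lowest values of Itga1 and Itgb8 are in CKD 2, CKD 5 and SZ 3, the libraries with slopes of -0.211, -0.312 and -0.248.

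Among the integrins of mesenchymal, muscle and platelet cells, 1 of 7 tested was called higher in CKD than in NC (Itga5). A further 2 were called lower (Itga2b and Itga7), and 24.4% and 26.0% of all tested genes were called higher and lower. None of the 7 was called in SZ against CKD by limma or by voom, where limma called 11.0% of all tested genes. An unadjusted limma p under 0.05 was found for 3 of the 7. Itga5, the fibronectin receptor's alpha chain, lay between 1.42 and 2.41 FPKM in NC (median 1.80), 2.80 and 7.57 in CKD (median 5.01) and 2.45 and 4.68 in SZ (median 3.29). NC lay under both other groups. CKD exceeded NC by 1.01 ± 0.18 (adjusted p = 0.00014), SZ exceeded NC by 0.61 ± 0.18 (adjusted p = 0.020, or 0.053 without SZ 5), and SZ against CKD was -0.39 ± 0.18 (adjusted p = 0.15). Fibroblast and mural cell markers summed to 63.0 to 102.4 FPKM in NC, 126.9 to 293 in CKD and 101 to 138.4 in SZ. Of these 7 markers, 5 were called higher and 1 lower in CKD than in NC, beside 24.4% and 26.0% of all tested genes. Their part in the Itga5 difference was not tested.

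Itga2b, the platelet receptor's alpha chain, was lower in CKD. It lay between 5.10 and 7.97 FPKM in NC, 2.08 and 4.71 in CKD and 2.89 and 5.03 in SZ, and NC lay above both other groups. The difference was -0.82 ± 0.15 in CKD against NC (adjusted p = 0.00020) and -0.48 ± 0.15 in SZ against NC (adjusted p = 0.028). The first was called in all 30 alternatives. The second was lost with a fixed FPKM sum (-0.23, adjusted p = 0.22) and without NC 1, NC 4, NC 5, SZ 5 or SZ 6 (highest adjusted p 0.071, without SZ 6). Of the platelet markers, 2 were tested and 1 passed. Pf4, a platelet chemokine, was called higher in CKD than in NC by 2.33 ± 0.31 (adjusted p = 7.5e-06), whereas Gp9, a chain of the von Willebrand factor receptor, had means of 1.06 FPKM in NC and 0.737 in CKD and did not pass (-0.25 ± 0.18, adjusted p = 0.27). The 6 platelet markers summed to 1.95 to 7.11 FPKM in NC and 7.55 to 31.2 in CKD, of which Pf4 alone gave 1.03 to 4.45 and 6.62 to 30.6. The other 4 were too low to be tested, with Treml1 and Gp1ba at means of 0.453 and 0.0657 FPKM in NC and 0.238 and 0.0289 in CKD, and Gp1bb was under 0.1 FPKM throughout. Their part in the Itga2b difference was not tested. Itgb3, the partner of Itga2b and Itgav, had means of 0.723 ± 0.133, 1.74 ± 1.37 and 1.50 ± 0.883 FPKM and did not pass (0.52 ± 0.27, adjusted p = 0.12).

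Itga7, a laminin receptor chain of muscle, had means of 5.12 ± 1.14, 2.85 ± 1.03 and 4.51 ± 1.39 FPKM and fell by 0.69 ± 0.19 in CKD (adjusted p = 0.0055). With a fixed FPKM sum the difference was -0.33 (adjusted p = 0.17). Itga7 overlaps Cd63 on the same strand, a gene with a mean of 545 FPKM, and the sources used here do not say how reads in the shared part were assigned. Itga1, a collagen receptor chain, had 17.6 ± 3.33, 18.9 ± 13.1 and 23.5 ± 11.2 FPKM (-0.25 ± 0.53, adjusted p = 0.72). Its lowest libraries were SZ 3 at 2.57, CKD 2 at 3.53 and CKD 5 at 5.79, which widened the spread of both groups. Itga8, the nephronectin receptor chain of mesangial and stromal cells, had 3.44 ± 0.880, 2.44 ± 0.429 and 2.65 ± 0.822 FPKM (-0.35 ± 0.16, adjusted p = 0.076). Itga9 had 4.06 ± 0.630, 4.18 ± 0.665 and 5.16 ± 1.28 FPKM and did not pass. Itga10 did not exceed 0.252 FPKM in any library, and Itga11 lay between 0.0128 and 0.412 in NC, 0.211 and 1.14 in CKD and 0.198 and 0.542 in SZ.

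Of 11 laminins tested, limma called 7 higher and none lower in CKD than in NC (median 0.56), beside 24.4% and 26.0% of all tested genes. A total of 8 had an unadjusted p under 0.05, and voom on the recovered reads called the same number higher and 1 lower, Lama3 (-0.57, adjusted p = 0.029). Only Lama3 was called in SZ against CKD, higher, by limma and by voom, beside 4.16% of all tested genes. In SZ against NC, 5 were called higher, beside 12.5%. The promoter windows of Lamb3 and Lama3, 2 chains of 1 laminin whose levels moved differently, are shown with the same motifs in capitals. They cover chr13:107362303-107362602 and chr18:3952517-3952816 of GRCr8, both on the plus strand.
Lamb3: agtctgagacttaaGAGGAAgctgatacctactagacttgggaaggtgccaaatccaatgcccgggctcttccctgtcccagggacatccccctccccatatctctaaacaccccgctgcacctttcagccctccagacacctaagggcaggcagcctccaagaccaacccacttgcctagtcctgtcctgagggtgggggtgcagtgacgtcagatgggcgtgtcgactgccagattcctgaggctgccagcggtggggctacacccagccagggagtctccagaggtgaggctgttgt
Lama3: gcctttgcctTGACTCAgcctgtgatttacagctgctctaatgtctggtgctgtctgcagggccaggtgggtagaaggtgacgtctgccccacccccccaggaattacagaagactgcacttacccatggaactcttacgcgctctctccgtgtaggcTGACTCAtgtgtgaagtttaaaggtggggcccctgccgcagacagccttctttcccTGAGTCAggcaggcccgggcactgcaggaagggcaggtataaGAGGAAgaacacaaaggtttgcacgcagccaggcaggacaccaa
The Lama3 window held 3 matches of TGANTCA and 1 of GAGGAA, and the Lamb3 window held 1 match of GAGGAA and none of TGANTCA. These letters describe the windows and were not tested against the levels.

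Lamc1, the gamma chain of most basement membranes, had 13.8 ± 2.04, 21.6 ± 7.35 and 18.8 ± 3.44 FPKM. It was 0.56 ± 0.18 higher in CKD (adjusted p = 0.015).

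Lamb3, a beta chain of covering epithelia, lay between 0.262 and 0.784 FPKM in NC (median 0.495), 1.03 and 3.35 in CKD (median 2.51) and 1.98 and 5.13 in SZ (median 2.89). Every CKD and SZ library was above NC. CKD exceeded NC by 1.16 ± 0.20 (adjusted p = 1.0e-04) and SZ exceeded NC by 1.50 ± 0.20 (adjusted p = 4.3e-05). SZ against CKD was 0.33 ± 0.20 (adjusted p = 0.27, interval -0.08 to 0.75).

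Lama3, the alpha chain that pairs with it, did not follow Lamb3. It lay between 0.892 and 1.57 FPKM in NC (median 1.06), 0.461 and 1.09 in CKD (median 0.730) and 0.988 and 1.76 in SZ (median 1.27). CKD against NC was -0.25 ± 0.12 (adjusted p = 0.086). SZ exceeded CKD by 0.38 ± 0.12 (adjusted p = 0.042), with overlapping ranges. That call held in 15 of 30 alternatives, was lost without any 1 of 10 libraries (highest adjusted p 0.11, without CKD 5) and was lost after a correction for gene length (0.21, adjusted p = 0.37). Markers of the urothelium, another epithelium a kidney sample can hold, were listed at a sum of at most 0.698 FPKM in any library.

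**Figure D4:**
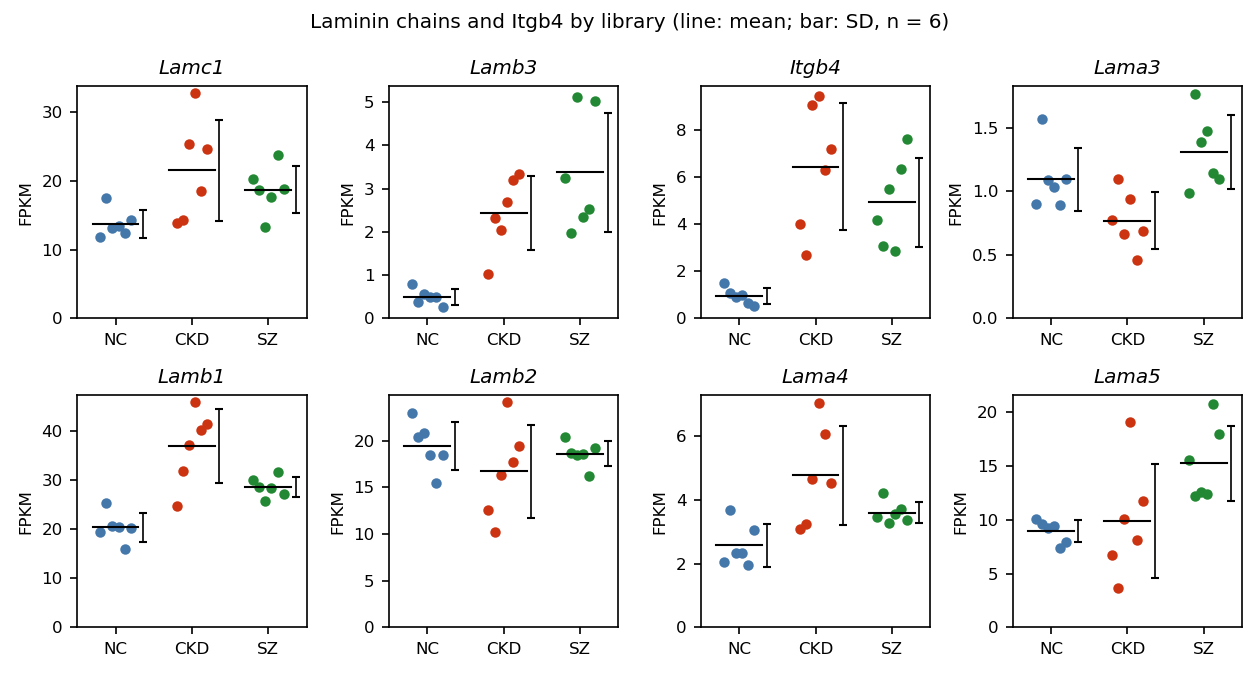
FPKM of laminin chains and Itgb4 in each library (points) by group, with the mean and SD of 6. Lamb3 and Itgb4 lie higher in every CKD and SZ library than in any NC library, and Lama3 does not.

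The other laminin alpha chains gave smaller differences. Lama2, the chain of muscle and interstitial basement membranes, had 2.30 ± 1.66, 4.72 ± 1.30 and 4.25 ± 0.899 FPKM and was 0.91 ± 0.25 higher in CKD than in NC (adjusted p = 0.0059). Lama4, the vessel wall chain, had 2.57 ± 0.671, 4.76 ± 1.55 and 3.59 ± 0.334 FPKM and was 0.67 ± 0.16 higher (adjusted p = 0.0016). Lama1, the embryonic chain that tubules keep in part, had 1.71 ± 0.608, 2.83 ± 1.04 and 3.19 ± 0.599 FPKM and was 0.48 ± 0.18 higher in CKD (adjusted p = 0.037), a call that held in 19 of 30 alternatives and was lost without any 1 of 8 libraries (highest adjusted p 0.091, without NC 1). None of these 3 passed in SZ against CKD, and Lama1 and Lama2 were still called higher in SZ than in NC, at 0.64 ± 0.18 (adjusted p = 0.018) and 0.80 ± 0.25 (adjusted p = 0.031). The latter was lost without any 1 of 7 libraries (highest adjusted p 0.078, without NC 4). Lama5, the main alpha chain of adult kidney basement membranes, had 8.97 ± 1.07, 9.91 ± 5.29 and 15.3 ± 3.52 FPKM. All SZ libraries were above all NC libraries (12.2 to 20.8 against 7.36 to 10.1), yet the difference of 0.69 had an adjusted p of 0.051, and SZ against CKD gave 0.69 ± 0.24 (adjusted p = 0.070). The comparison with NC passed in 10 of 31 alternatives, such as without CKD 2 (adjusted p = 0.015).

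Lamb1 and Lamb2, beta chains of tubular and glomerular basement membranes, differed in behaviour. Lamb1 had 20.4 ± 2.98, 36.9 ± 7.55 and 28.6 ± 2.11 FPKM and was 0.81 ± 0.13 higher in CKD than in NC (adjusted p = 5.1e-05). In SZ it was 0.48 ± 0.13 above NC (adjusted p = 0.013) and -0.33 ± 0.13 from CKD (adjusted p = 0.095). Lamb2 had 19.4 ± 2.59, 16.7 ± 4.98 and 18.6 ± 1.35 FPKM and did not pass (-0.24 ± 0.15, adjusted p = 0.19). Lamc3, a chain of few tissues, had 6.81 ± 4.26, 7.58 ± 1.94 and 7.75 ± 1.17 FPKM and did not pass (0.28 ± 0.27, adjusted p = 0.40). Podocyte markers, which include cells that lay down Lamb2 and Lama5, summed to 125.2 to 210.8 FPKM in NC, 48.3 to 114.6 in CKD and 45.1 to 108.8 in SZ, and endothelial markers to 93.0 to 135.7, 66.8 to 94.8 and 82.2 to 104.4. Their part in the laminin levels was not tested.

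Ratios within a library compare chains directly and do not depend on how libraries are scaled to each other. For 12 pairs the difference in mean log2 ratio was put to exact 2-sided permutation tests with adjustment over all 36 tests, where the smallest exact p for 6 against 6 is 0.0022. A total of 9 pairs passed in CKD against NC, 7 in SZ against CKD and 7 in SZ against NC.

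The ratio of Itgb2 to Itgb1, a leukocyte against a general beta chain, had medians of 0.0419 in NC, 0.156 in CKD and 0.0761 in SZ. It was 4.01-fold higher in CKD than in NC (exact p = 0.0022, adjusted p = 0.0071) with no overlap, and 0.488 times as high in SZ as in CKD (exact p = 0.015, adjusted p = 0.030). The latter missed the threshold without CKD 5 (adjusted p = 0.053) or SZ 1 (adjusted p = 0.051). The ratio of Itgam to Itgal, a myeloid against a mainly lymphoid alpha chain, had medians of 0.208, 1.50 and 0.563. The CKD ratio was 7.57-fold above NC (exact p = 0.0022, adjusted p = 0.0071) and the SZ ratio was 0.417 times CKD (exact p = 0.0087, adjusted p = 0.021), so Itgam differed more than Itgal in both comparisons. The ratio of Itgax to Itgam had medians of 3.81, 0.661 and 0.940, a difference of -2.59 on the log2 scale in CKD against NC (exact p = 0.0022, adjusted p = 0.0071) and 0.63 in SZ against CKD (exact p = 0.0043, adjusted p = 0.011). In NC, Itgax was the more abundant of these alpha chains in every library, and in CKD Itgam was.

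Set against Ptprc, the pan-leukocyte phosphatase, Itgb2 was 1.60-fold higher in CKD than in NC (exact p = 0.028, adjusted p = 0.044) and 0.579 times as high in SZ as in CKD (exact p = 0.024, adjusted p = 0.043). These calls held in 9 and 10 of 22 alternatives; leaving out 1 library ended the first for 10 of the 18 libraries (among them CKD 5, 0.56, adjusted p = 0.091) and the second for 9 (among them CKD 5, -0.68, adjusted p = 0.081). Ptprc itself had means of 1.44 ± 0.492, 5.61 ± 1.23 and 3.96 ± 0.669 FPKM. Itgb7 to Itgb2 had medians of 0.130, 0.148 and 0.252 and did not pass in any comparison (exact p of 0.084 in both comparisons with SZ).

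Among matrix receptors, Itga3 to Itga6 had medians of 0.246, 0.379 and 0.255 and was 1.79-fold higher in CKD than in NC (exact p = 0.0043, adjusted p = 0.011). In the SZ libraries the ratio was 0.66 times that in CKD and missed the threshold (exact p = 0.037, adjusted p = 0.053). Itgav to Itgb1 had medians of 0.225, 0.187 and 0.184, with 0.814 times in CKD against NC (exact p = 0.028, adjusted p = 0.044), which held in 8 of 22 alternatives. Itgb6 to Itgb8 had medians of 0.891, 1.20 and 1.53 and did not pass in CKD against NC (exact p = 0.16, adjusted p = 0.20). In SZ it was 1.67-fold higher than in NC (exact p = 0.026, adjusted p = 0.044), which held in 11 of 22 alternatives and was lost without NC 1, NC 3, NC 5, NC 6, CKD 5, SZ 1, SZ 2, SZ 3 or SZ 4 (highest adjusted p 0.078, without NC 1) and with the replicate number as a block (adjusted p = 0.056).

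Among laminins, Lamb1 to Lamb2 was near 1 in NC (0.848 to 1.24), between 1.89 and 3.12 in CKD and between 1.39 and 1.95 in SZ. All CKD and SZ libraries lay above all NC libraries, and only the ends of SZ and CKD met. It was 2.14-fold higher in CKD than in NC (exact p = 0.0022, adjusted p = 0.0071) and 0.685 times as high in SZ as in CKD (exact p = 0.0043, adjusted p = 0.011). Lama4 to Lama5 had medians of 0.267, 0.466 and 0.246. It was 1.81-fold higher in CKD than in NC (exact p = 0.013, adjusted p = 0.029). In SZ it was 0.467 times as high as in CKD with no overlap (exact p = 0.0022, adjusted p = 0.0071), which held in 21 of 22 alternatives. Its highest CKD values were in CKD 2 (0.88) and CKD 5 (0.75), both with a negative length slope, and the other CKD libraries lay between 0.37 and 0.47. SZ against NC stayed short of the threshold (0.846 times, exact p = 0.27, adjusted p = 0.33). Lama1 to Lama5 had medians of 0.196, 0.322 and 0.218, and its difference between SZ and CKD (exact p = 0.024, adjusted p = 0.043) held in 12 of 22 alternatives.

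**Figure D5:**
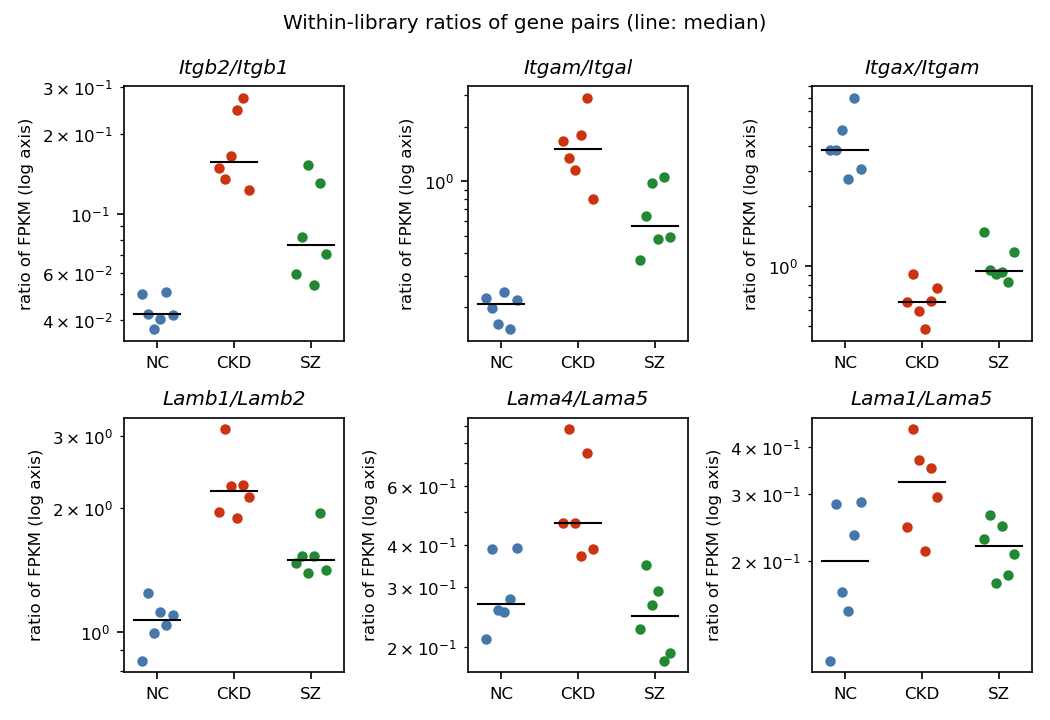
Ratios of FPKM within each library for gene pairs, on a log axis, by group; lines mark medians. Lamb1/Lamb2 has medians of 1.07, 2.20 and 1.50 and Itgam/Itgal has medians of 0.208, 1.50 and 0.563 in NC, CKD and SZ.

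Other genes of the pathway were taken as lists. Low genes could pass the filter through the groups where they are high, so the counts of these lists are descriptions. Of 19 tested integrin ligands outside the laminins, 13 were called higher and 2 lower in CKD than in NC (median 1.74), beside 24.4% and 26.0% of all tested genes. The largest were Spp1 (6.55 ± 0.35, adjusted p = 4.8e-10), Fgb (3.83 ± 0.33) and Postn (3.0 ± 0.24). Spp1 encodes osteopontin, a ligand of Itgav integrins, and Postn encodes periostin. Fgb encodes 1 chain of fibrinogen, a protein bound by the integrins that hold Itgam or Itga2b. In SZ against CKD 6 were called lower and 1 higher (4 and 1 by voom), beside 6.82% and 4.16% of all tested genes, with Postn at -1.72 ± 0.24 (adjusted p = 0.0021), Ccn2 at -1.06 ± 0.17 (adjusted p = 0.0024) and Tgfb1 at -0.94 ± 0.29 (adjusted p = 0.041). Among 15 tested basement membrane partners of laminin, 6 were called higher and 2 lower in CKD than in NC (median 0.34), a share of the list near the 50.3% of all tested genes called in either direction. Col4a1 and Col4a2, the ubiquitous type IV collagen chains, rose by 1.65 ± 0.22 (adjusted p = 6.5e-06) and 1.56 ± 0.22 (adjusted p = 1.5e-05), and Col4a3, a chain of the glomerular basement membrane, fell by 2.15 ± 0.40 (adjusted p = 0.00022). None of the 15 was called in SZ against CKD by limma or by voom, where limma called 11.0% of all tested genes. An unadjusted limma p under 0.05 was found for 2 of the 15.

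Of 30 integrin adaptors and activators, 13 were called higher and 4 lower in CKD than in NC (median 0.30), beside 24.4% and 26.0% of all tested genes. The largest were Fermt3 and Parvg, the kindlin and parvin of blood cells, at 2.03 ± 0.20 (adjusted p = 2.5e-07) and 1.83 ± 0.15 (adjusted p = 5.3e-08), and Actn1, an actin cross-linker, at 1.67 ± 0.21 (adjusted p = 3.7e-06). Limma called 4 lower and none higher in SZ than in CKD, beside 6.82% and 4.16% of all tested genes, and 12 of the 30 had an unadjusted p under 0.05. Voom on the recovered reads called 4 lower and 2 higher. The 4 that limma called were Fermt3 at -0.78 ± 0.20 (adjusted p = 0.019), Parvg at -0.67 ± 0.15 (adjusted p = 0.013), Parvb at -0.61 ± 0.15 (adjusted p = 0.019) and Lims1 at -0.45 ± 0.11 (adjusted p = 0.019). The list medians stand beside -0.04 and 0.01 over all tested genes in the 2 comparisons.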

How the data were processed

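RNA from whole rat kidneys was sequenced in 18 libraries, 6 each from NC, CKD and SZ rats, grouped by the treatment in the labels. Libraries were made from Trizol-extracted total RNA with an Illumina TruSeq kit, per the labels' protocols. The authors deposited 1 table of FPKM per gene, aligned with HISAT2 2.0.5 to mRatBN7.2 per the submitters' processing notes, together with a deposited gene length column used only as a property of the gene. The sources used here do not name the counting program or its strand setting. Every FPKM above 0 was a whole number of reads within a tolerance of 0.01, which gave totals of 15354358 to 18532375 reads per library. No count model was used.

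Genes with at least 1 FPKM in at least 6 libraries were kept (13851 of 32116, 18265 set aside). In R 4.3.3, limma 3.58.1 fitted the means of the 3 groups to log2(FPKM + 1), with the spread shared by all libraries and moderated along an intensity trend. Tests were 2-sided, and p-values were adjusted by Benjamini-Hochberg over all tested genes. Every adjusted p of a single gene is from limma. Ratios used a pseudocount of 0.1 FPKM and exact permutation tests over 924 splits. The limma step was checked on simulated data.

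Every member of the name rule was described except 1 that is not reported here, with 1 ratio that holds it; the counts include both. Library ranges are given for members called at a difference of at least 1 in CKD against NC or called in SZ against CKD, and for others where a statement rests on them, the latter chosen after their values were seen. Pathway lists name at most 3 called genes per comparison, except for the 4 adaptors called in SZ against CKD. The members, lists and tests were chosen with earlier results of these data known. Promoter windows came from RefSeq's GRCr8 table. Alternatives were other pseudocounts, filters and scalings, voom on recovered reads and a lowess correction for gene length (span 0.3). Others were a fit of only the groups compared, array weights, a replicate block, and leaving out libraries. Of the scalings, that by median ratios called the same 6973, 1521 and 2919 genes as the main fit. It is counted among the alternatives of single genes but is no separate check.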

Additional observations from a re-analysis of the deposited data

Results flagged for a closer look

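Each group of 6 libraries was searched, for the 32 tested members, for a highest or lowest library whose gap to its nearest neighbour took a share of the group's range above Dixon's 95% critical value. Of 96 groups, 4 held such a library, and chance alone gives about 1 in 20. Itga6 in CKD 6 was 75.0 FPKM, with the next CKD library at 42.0 (0.684 of the range). Itga9 in CKD 2 was 2.87 FPKM, under the next at 4.12 (0.687 of the range). Itgav in SZ 3 was 13.2 FPKM, under the next at 21.3 (0.626 of the range). Lama3 in NC 2 was 1.57 FPKM, above all other NC libraries (0.700 of the range). CKD 2 and SZ 3 are 2 of the 3 libraries with the most negative length slope, and the part of that slope in these values was not tested.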

How the results depend on the processing

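No called member changed direction under any alternative, and Itgam and Itgb2 were called in all 3 comparisons in all 31. CKD against NC had 19 called members, and 8 were called when genes needed a mean of 5 FPKM, which tested 17 members. The same filter gave 2 calls in SZ against CKD, where the usual count was 4, and 6 in SZ against NC, where it was 15. In SZ against CKD a fit of only the groups compared gave 2 and array weights gave 9. Leaving out single libraries gave 17 to 21, 2 to 10 and 11 to 16 calls in the 3 comparisons. In SZ against CKD the count was 10 without CKD 1, 9 without SZ 3, and 2 without CKD 5 or SZ 4. Without CKD 2, CKD 5 and SZ 3 together the counts were 20, 3 and 21.

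There were 23 ratio tests past the threshold, 12 without those 3 libraries, and 17 to 23 when single libraries were left out. The ratio of Itgb7 to Itgb2 in CKD against NC, 0.03 in log2, became -0.78 with a pseudocount of 1 (adjusted p = 0.018). Itgb7 lay between 0.258 and 0.799 FPKM in NC, under that pseudocount, and Itgb2 lay above it. The cause was not tested.

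Same-numbered libraries deviated together in few cases. The correlations were -0.048 to 0.23 in CKD against NC, -0.36 to 0.037 in SZ against CKD and -0.019 to 0.21 in SZ against NC. Of 6 numbers each, 1, 0 and 3 had a correlation over 0.1. Low correlations cannot exclude a pairing by number, and the main fit used none. With a replicate block the counts of called members were 18, 4 and 15. With the block as sign flips, 0 ratio tests passed, since the smallest p of 6 pairs is 0.031 before adjustment over 36 tests. The reads per library limit the low NC values: Itgam and Itgb7 rested there on 10 to 40 reads, and PCR copies are not independent molecules.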

Other observations

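Within the NC group, Lamc3 and Lama2 varied together in the same libraries, a pattern that some other members shared. Lamc3 was 12.7 FPKM in NC 2, 11.6 in NC 6 and 6.28 in NC 5, and 3.16 to 3.78 in the other NC libraries. Lama2 was 4.82 FPKM in NC 2, 3.79 in NC 6 and 2.25 in NC 5, and 0.855 to 1.07 in the others. NC 2 and NC 6 were also the highest NC libraries for Lama1 (2.64 and 2.21 FPKM) and Lama4 (3.69 and 3.06). The same held for Itga8 (4.57 and 4.50), so the order was not particular to Lamc3 and Lama2. Not all members shared it, since NC 6 was the lowest NC library for Itgb4 (0.514) and Lamb3 (0.262). The CKD and SZ libraries held 4.75 to 9.54 FPKM of Lamc3.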
